A study of Homo sapiens with 12 samples.

Results

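The 10 genes described here encode the NF-kB subunits and the feedback inhibitors of this transcription factor family. They were chosen by gene name, as the rows of the expression table whose name column equals NFKB1, NFKB2, REL, RELA, RELB, NFKBIA, NFKBIB, NFKBIE, NFKBIZ or TNFAIP3, and all 10 were found among 19973 genes. RNA was sequenced from the human non-small cell lung cancer (NSCLC) lines H460 and A549, each labelled WT in genotype. In each line 3 libraries came from non-treated cells (control) and 3 from cells given ISP-I (isovalerylspiramycin I, a macrolide isolated from the antibiotic carrimycin) at 10 μM for 48 h, 12 libraries in all. Each line is a single cell line, the study describes H460 and A549 as carriers of inactivating KEAP1 mutations, and the labels state no vehicle for the controls. The study's statistics section speaks of independent experiments in general, without naming the sequenced libraries, and the labels do not say whether the 3 libraries of a group came from separate cultures, so p-values measure the spread between these libraries only. These are bulk samples, in which a change in the mix of cells and a change in RNA per cell cannot be told apart.

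The NF-kB family consists of dimers of proteins with a Rel homology domain. In resting cells the dimers are held in the cytoplasm by IkB proteins, and the precursors encoded by NFKB1 and NFKB2 hold their partners back in the same way through their own ankyrin repeats. In the canonical branch a kinase complex marks IkB for destruction and dimers with RelA or c-Rel enter the nucleus, while in the alternative branch p100 is processed to p52, the usual partner of RelB. Many of the genes that encode subunits and inhibitors are themselves switched on by NF-kB, so that the inhibitors close a feedback loop. The question put to the data was how the mRNAs of these genes differed after ISP-I treatment, and whether the differences were of the same size in H460 and A549.

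The values are the authors' deposited FPKM, which is read fragments corrected for gene length and for sequencing depth, and behind which lay 14225849 to 17874422 reads per library. Between replicates the chi-square per degree of freedom, which read sampling alone would hold near 1, was 3.03 to 98.7, and it was largest for H460 libraries 2 and 3 under ISP-I. In A549, control library 3 stood apart from control libraries 1 and 2 (28.04 and 32.5 against 3.38 between those). Keratins KRT8, KRT18 and KRT19, which mark epithelial cells, ranged from 43.8 to 748 FPKM over all libraries. EPCAM and CDH1, 2 other epithelial markers, lay at 0 to 0.148 FPKM in H460 and at 0.605 to 5.18 FPKM in A549. After ISP-I the A549 libraries had CDH1 at 0.605 to 0.911 FPKM against 4.75 to 5.18 in controls. Their KRT8 was at 313 to 332 against 568 to 748, and their KRT19 at 43.8 to 46.8 against 57.0 to 78.9. The A549 groups overlapped for KRT18. In H460 the markers moved both ways. KRT18 was higher after ISP-I, at 107 to 160 FPKM against 66.9 to 75.5 in controls. KRT19 was lower, at 52.3 to 61.5 against 103 to 141, and the groups overlapped for KRT8. The summed level of 5 fibroblast or endothelial markers was 0.445 to 0.657 FPKM in H460 controls, 2.28 to 2.61 in treated H460, 0.108 to 0.186 in A549 controls and 0.586 to 0.645 in treated A549. In H460 this sum was mostly PDGFRB, at 0.429 to 0.646 FPKM in controls and 2.24 to 2.53 after ISP-I. In A549 PDGFRB (0.00954 to 0.0296 and 0.250 to 0.313) and VWF (0 to 0.00655 and 0.242 to 0.368) were higher after ISP-I. CDH5 was lower there, at 0.0694 to 0.145 in controls and 0 to 0.0229 after ISP-I. The sum therefore does not show a like shift of its genes. The leukocyte markers PTPRC and CD3E lay at 0 to 0.0368 FPKM in every library. The summed level of 4 leukocyte markers, these and CD14 and ITGAM, which carried it, was 5.14 to 6.51 FPKM in H460 controls, 2.84 to 3.86 in treated H460, 1.92 to 2.64 in A549 controls and 6.85 to 7.36 in treated A549. CD14 was at 0.849 to 1.59 FPKM in treated H460 against 5.13 to 6.43 in controls. In A549 it was at 0.0423 to 0.309 after ISP-I against 0.725 to 1.32. ITGAM moved the other way, at 1.99 to 2.50 FPKM in treated H460 against 0 to 0.0810 in controls. In A549 it was at 6.78 to 7.05 after ISP-I against 1.17 to 1.32. The leukocyte sum therefore does not show a like shift of its genes. The part of these shifts in the results below was not tested.

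The sequences around the start sites of these genes are shown as a description, and whether they bear on the changes after ISP-I was not tested. RefSeq promoter sequences on GRCh38.p14, from 250 bases before to 50 bases after a gene start, were found for 8 of the 10 genes, and RELB and NFKBIE were not matched. Both strands were searched for the 10-base kappaB consensus, the sequence to which NF-kB dimers bind. It was found in 7 of the 8 genes, RELA being the exception, and in 9 of their 14 promoters. For comparison, 5.91% of all 35116 promoters and 7.09% of all 27305 genes had a match. Of 22 genes of a list of NF-kB targets with a promoter sequence, 11 had a match. A match describes the letters in these windows and is no measurement of binding. The members were chosen as genes of this pathway, many of them known to be switched on by NF-kB. The excess over all genes is therefore no finding about ISP-I. In each sequence, printed along the strand of the gene, capitals mark a single match, and any other match in the window is not marked. Such matches are GGAAATCCCC in that of TNFAIP3, left in lower case, and those of NFKB2, REL and NFKBIB that overlap the capitals.
NFKB1, chr4:102501290-102501339, plus strand: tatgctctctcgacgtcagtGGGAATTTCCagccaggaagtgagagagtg
NFKB2, chr10:102394451-102394500, plus strand: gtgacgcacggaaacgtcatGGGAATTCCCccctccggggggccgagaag
NFKB2, chr10:102395664-102395704, plus strand: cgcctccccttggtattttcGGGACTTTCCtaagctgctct
REL, chr2:60881507-60881556, plus strand: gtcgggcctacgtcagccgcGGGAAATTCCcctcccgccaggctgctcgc
NFKBIA, chr14:35404801-35404850, minus strand: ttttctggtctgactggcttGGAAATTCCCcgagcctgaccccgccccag
NFKBIB, chr19:38899921-38899968, plus strand: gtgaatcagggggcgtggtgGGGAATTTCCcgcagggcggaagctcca
NFKBIZ, chr3:101827747-101827796, plus strand: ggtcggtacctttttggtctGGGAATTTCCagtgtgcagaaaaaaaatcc
TNFAIP3, chr6:137867172-137867221, plus strand: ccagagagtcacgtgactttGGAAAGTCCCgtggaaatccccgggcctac

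After ISP-I treatment of H460, the mRNAs of all 10 genes were higher than in control cells, by up to 29.3 times in RELB and by 1.86 times in RELA. In A549, TNFAIP3 and NFKBIB were the members that rose over 2-fold. A gene was called where the fold change was over 2 and the adjusted p under 0.05 in limma on log2(FPKM + 1), a scale that understates the changes of genes near or under 1 FPKM. By this rule 9 of the 10 members were called higher in H460, where 10.5% of 13423 genes tested were called higher and 15.2% lower. The remaining member, RELA, passed the adjusted p but not the 2-fold change, so that all 10 passed the adjusted p in the higher direction, where 27.6% of all genes did. The median log2 fold change of the 10 members in H460 was 2.27, against -0.15 over all genes tested. In A549, 2 of the 10 were called higher, where 4.2% of 13705 genes were called higher and 3.51% lower. At any fold change 6 members passed the adjusted p there, all higher, where 30.5% of all genes did, and NFKB1, REL, RELB and NFKBIA did not pass. The median over the 10 members in A549 was 0.66, against 0.020 over all genes. In H460 the lowest ISP-I library was above the highest control library for all 10 members, which held for 29.6% of all genes. In A549 this held for 8 members (34.8% of all genes), the groups of REL were apart in the opposite direction (30.7% of all genes), and those of NFKB1 overlapped.

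Dividing the libraries by the median of their gene ratios raised the all-gene median in H460 from -0.15 to 0.014, a shift of 0.16. The share of calls that were higher then went from 40.8% to 56.4%, and the log2 fold changes of the members moved by 0.22 to 0.28. All 10 members were called higher in H460 under that scaling.

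**Figure D1:**
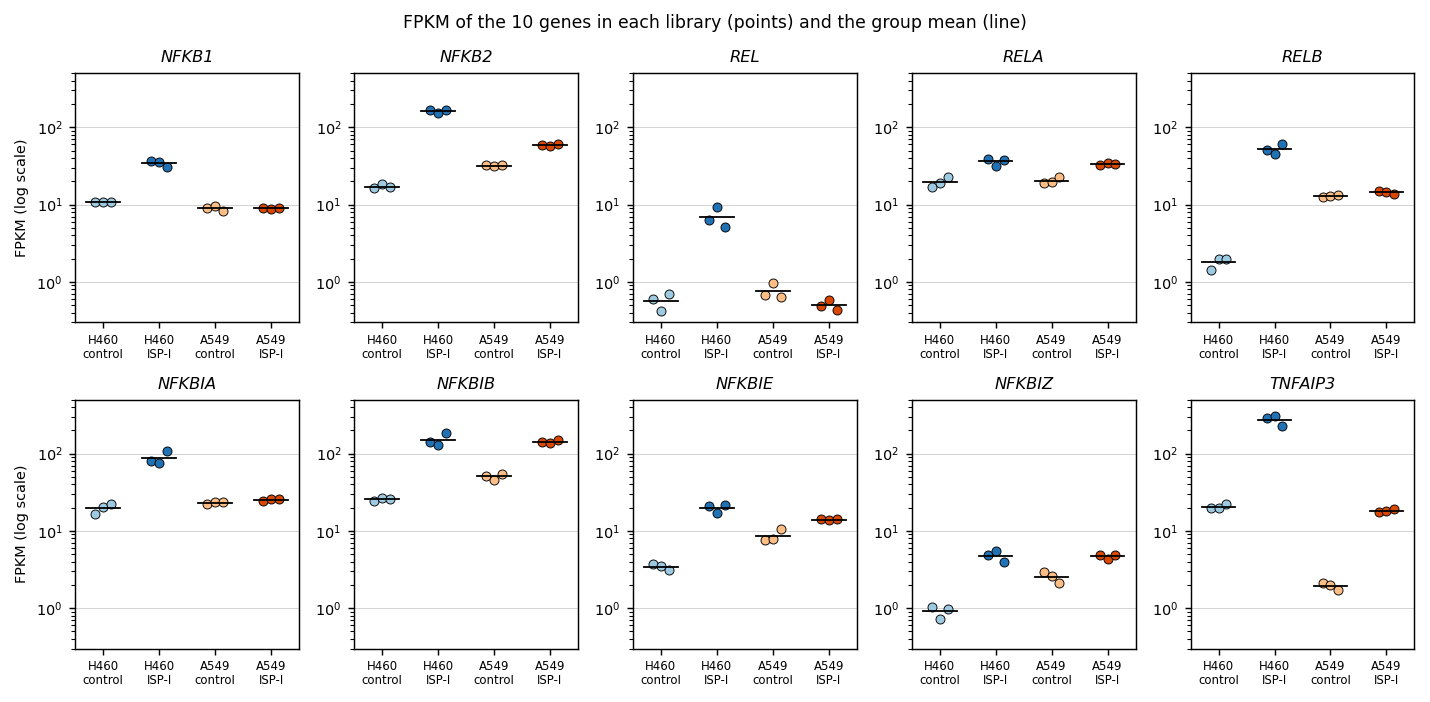
FPKM (vertical log axis) of the 10 genes in each of the 12 libraries, with points for libraries and a line for the mean of each group of 3. In the H460 panels every ISP-I point lies above every control point, while in A549 the NFKB1 points of control (8.23 to 9.55) and ISP-I (8.83 to 9.13) overlap.

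Of the subunits, the precursor genes NFKB1 and NFKB2 responded unequally. NFKB1 (chr4:102501331-102617302, plus strand) encodes p105, the precursor of p50. Its FPKM was 10.7, 10.9 and 10.7 in the H460 control libraries and 36.9, 35.9 and 30.2 after ISP-I. The control libraries lay close together, and the third ISP-I library was the lowest of the treated. The mean went from 10.8 ± 0.125 to 34.3 ± 3.61 (SD, n = 3), a log2 fold change of 1.58, 95% CI 1.31 to 1.85, adjusted p 6.71e-06. In A549 its FPKM was 9.14, 9.55 and 8.23 in controls and 9.13, 8.83 and 8.97 after ISP-I. These groups overlapped and their means were the same to 3 digits (log2 fold change 0.0023, 95% CI -0.17 to 0.18, adjusted p 0.982).

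NFKB2 (chr10:102394110-102402524, plus strand) encodes p100, which is both an inhibitor and the precursor of p52. Its FPKM was 16.2, 18.2 and 16.8 in H460 controls and 169, 151 and 167 after ISP-I, the highest treated level of any subunit. The mean rose from 17.1 ± 1.03 to 162 ± 9.79 (SD, n = 3), 9.50-fold (log2 fold change 3.17, 95% CI 2.91 to 3.44, adjusted p 3.08e-07). A549 libraries gave 32.02, 31.3 and 32.6 in controls and 59.4, 57.1 and 60.7 after ISP-I. The A549 groups were well apart and tight, but the rise from 31.98 ± 0.619 to 59.05 ± 1.83 stayed under 2-fold (log2 fold change 0.86, 95% CI 0.72 to 1.003, adjusted p 1.22e-05).

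RELA and RELB stood at opposite ends of the H460 response. RELA (chr11:65653597-65663090, minus strand) encodes p65, the main activating subunit of the canonical branch. Its FPKM was 16.9, 18.7 and 22.5 in H460 controls and 38.9, 31.4 and 37.8 after ISP-I. In A549 it was 18.9, 19.9 and 22.6 in controls and 32.96, 34.6 and 33.7 after ISP-I. In each line every treated library was above every control. The log2 fold change was 0.87, 95% CI 0.54 to 1.20, adjusted p 0.000727 in H460 and 0.70, 95% CI 0.52 to 0.88, adjusted p 0.00014 in A549. With the scaling by gene ratios RELA passed the 2-fold change in H460 (log2 fold change 1.14).

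RELB (chr19:45001449-45038198, plus strand) encodes the partner of p52 in the alternative branch. Its FPKM was 1.41, 1.99 and 1.96 in H460 controls, on 61 to 91 reads per library, and 51.1, 45.3 and 60.5 after ISP-I. No other member rose by a larger factor in H460, 29.3-fold in mean FPKM (1.78 ± 0.327 to 52.3 ± 7.69, SD, n = 3, log2 fold change 4.26, 95% CI 3.92 to 4.59, adjusted p 2.46e-07). In A549 the controls were already at 12.5, 12.9 and 13.4, and ISP-I gave 14.9, 14.4 and 13.6. All treated A549 libraries were above the controls, but the difference did not pass the test (log2 fold change 0.13, 95% CI -0.021 to 0.29, adjusted p 0.121). Without A549 control library 3, which stood apart, it passed the adjusted p (log2 fold change 0.16, adjusted p 0.0276).

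REL (chr2:60881521-60931612, plus strand) encodes c-Rel, a subunit best known from lymphocytes. FPKM is divided by gene length, and the length of REL was 13172 bases, against 6359 for NFKB1, the next longest member. In H460 controls REL had 83 to 135 reads per library, against 61 to 91 for RELB and 65 to 88 for NFKBIZ. Its FPKM was the lowest of the members in both control groups. It was 0.591, 0.415 and 0.688 in H460 controls and 0.667, 0.966 and 0.643 in A549 controls. After ISP-I it was at 6.32, 9.17 and 5.20 in H460 and 0.483, 0.586 and 0.434 in A549. The treated libraries were thus all higher than the controls in H460 and all lower in A549. In H460 the log2 fold change was 2.31, 95% CI 1.89 to 2.72, adjusted p 9.25e-06, 12.2-fold in mean FPKM. In A549 the difference did not pass the adjusted p (-0.22, 95% CI -0.42 to -0.026, adjusted p 0.0536), on 125 to 187 reads per library in controls and 82 to 121 after ISP-I. It passed without A549 control library 3 (-0.27, adjusted p 0.0234) and in limma voom on the reads recovered from FPKM (-0.61, adjusted p 0.0210). Of the exon bases of REL, 33.3% are shared with an unnamed long non-coding RNA on the same strand that has no row of its own, and whether reads of that transcript enter the value was not tested.

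The classical IkB proteins bind NF-kB dimers in the cytoplasm and are destroyed when the canonical branch is switched on. NFKBIA (chr14:35401513-35404749, minus strand), which encodes IkB alpha, the inhibitor resynthesised fastest after stimulation, was at 16.4, 20.5 and 22.2 FPKM in H460 controls and 80.98, 75.1 and 109 after ISP-I. The third treated library was the highest. Its mean rose from 19.7 ± 2.97 to 88.2 ± 17.9 (SD, n = 3, log2 fold change 2.10, 95% CI 1.70 to 2.49, adjusted p 1.25e-05). In A549 it was 22.4, 23.4 and 23.7 in controls and 24.3, 25.5 and 25.5 after ISP-I. These groups were narrowly apart, and the difference did not pass the test (log2 fold change 0.11, 95% CI -0.030 to 0.25, adjusted p 0.152). Without A549 control library 3 the adjusted p was 0.0394 (log2 fold change 0.13).

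NFKBIB (chr19:38899700-38908893, plus strand), which encodes IkB beta, had the highest mean FPKM of the members in the controls of both lines. It was at 24.6, 26.7 and 26.02 FPKM in H460 controls and 142, 130.1 and 183 after ISP-I (log2 fold change 2.50, 95% CI 2.16 to 2.84, adjusted p 2.34e-06). In A549 it was at 51.9, 45.3 and 55.2 in controls and 140.0, 138 and 151 after ISP-I (log2 fold change 1.48, 95% CI 1.28 to 1.68, adjusted p 5.11e-06). Although the controls of the lines differed, their treated means were near each other, 152 ± 27.6 in H460 and 143 ± 6.81 in A549 (SD, n = 3). NFKBIE (chr6:44258166-44265788, minus strand), which encodes IkB epsilon, was at 3.72, 3.47 and 3.09 in H460 controls and 21.1, 17.1 and 21.7 after ISP-I (log2 fold change 2.24, 95% CI 1.94 to 2.53, adjusted p 1.96e-06). In A549 it was at 7.63, 7.86 and 10.6 in controls, where the third library was the highest, and 14.3, 13.7 and 14.1 after ISP-I. The A549 rise passed the adjusted p but not the 2-fold change (log2 fold change 0.64, 95% CI 0.38 to 0.91, adjusted p 0.00167).

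NFKBIZ (chr3:101827991-101861022, plus strand) encodes IkB zeta, an atypical member that works in the nucleus as a partner of p50 dimers. Its levels were low throughout, at 1.04, 0.725 and 0.978 FPKM in H460 controls and 4.83, 5.44 and 3.996 after ISP-I. The H460 groups did not overlap, and the mean rose 5.21-fold (log2 fold change 1.59, 95% CI 1.29 to 1.88, adjusted p 1.16e-05). In A549 it was 2.95, 2.58 and 2.12 in controls and 4.83, 4.34 and 4.81 after ISP-I (log2 fold change 0.68, 95% CI 0.44 to 0.91, adjusted p 0.000711), a rise under 2-fold. NFKBIZ shares 3.29% of its exon bases with NXPE3 on the same strand.

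TNFAIP3 (chr6:137867214-137883312, plus strand) encodes A20, a ubiquitin-editing enzyme that shuts off signalling upstream of the IkB kinases. In H460 its FPKM was 19.5, 19.6 and 22.4 in controls and 289, 302 and 229.7 after ISP-I, the highest level of any member in any group. The third treated library was the lowest of its group but still more than 10 times any control. The mean rose from 20.5 ± 1.63 to 273 ± 38.5 (SD, n = 3), 13.3-fold (log2 fold change 3.67, 95% CI 3.34 to 3.996, adjusted p 3.95e-07). The A549 controls were at 2.08, 2.02 and 1.71 and the treated A549 libraries at 17.7, 17.9 and 19.1, a difference in the means of 9.40-fold (log2 fold change 2.71, 95% CI 2.53 to 2.90, adjusted p 3.59e-07). It had the largest fold change of the 10 members in A549, where the treated level came near that of untreated H460. Exons of TNFAIP3, NFKBIB and RELA overlap genes on the opposite strand over 1.47% to 1.89% of their bases, and the strand setting of the counting is not given in the sources used here.

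The change after ISP-I was larger in H460 than in A549 for most of the 10 genes when the difference itself was tested. In the interaction of line and treatment over all 12 libraries, 7 members were called higher in H460 (over 1 on the log2 scale and adjusted p under 0.05), where 5.93% of 13953 genes were called higher and 10.1% lower. At any size 9 members passed the adjusted p with a larger change in H460, where 18.6% of all genes did. The median difference over the members was 1.59, against -0.16 over all genes. RELB differed most, by 4.12, SE 0.16, adjusted p 4.29e-09 (limma). REL followed with 2.53, SE 0.21, adjusted p 1.54e-06, and NFKB2 with 2.31, SE 0.11, adjusted p 2.37e-08. NFKBIA (1.98), NFKBIE (1.59) and NFKB1 (1.58) were also called. NFKBIB, NFKBIZ and TNFAIP3 differed less, by 1.02, 0.91 and 0.95, so that NFKBIB was just inside the called range and the others just outside. The size of these 3 differences depended on the processing. For NFKBIZ, whose FPKM is low, the difference was over 2-fold with 0.1 in place of 1 added before the log (1.41), with the scaling by gene ratios (1.17) and in limma voom (1.51 with library totals and 1.82 with gene-ratio factors). TNFAIP3 ranged from 0.50 (adjusted p 0.0419) in voom with library totals to 1.29 with the scaling by gene ratios. Leaving out a single library also moved each of the 3 across the 2-fold line. Without ISP-I library 3 of H460 the differences were 0.88 in NFKBIB, 1.01 in NFKBIZ and 1.08 in TNFAIP3. NFKBIB was also under 2-fold without A549 control library 3 (0.96), A549 ISP-I library 2 (0.995) or H460 control library 1 (0.99). TNFAIP3 was also over it without A549 control library 3 (1.01) or H460 control library 3 (1.02). For RELA no difference was detected (0.17, 95% CI -0.19 to 0.52, adjusted p 0.408), and an interval up to 0.52 does not show that the lines changed alike. With the scaling by gene ratios, which shifted the all-gene median of this comparison by 0.18 and moved the share of calls that were higher from 37.0% to 61.1%, RELA differed by 0.48 (adjusted p 0.0391), and the members' differences rose by 0.23 to 0.34.

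**Figure D2:**
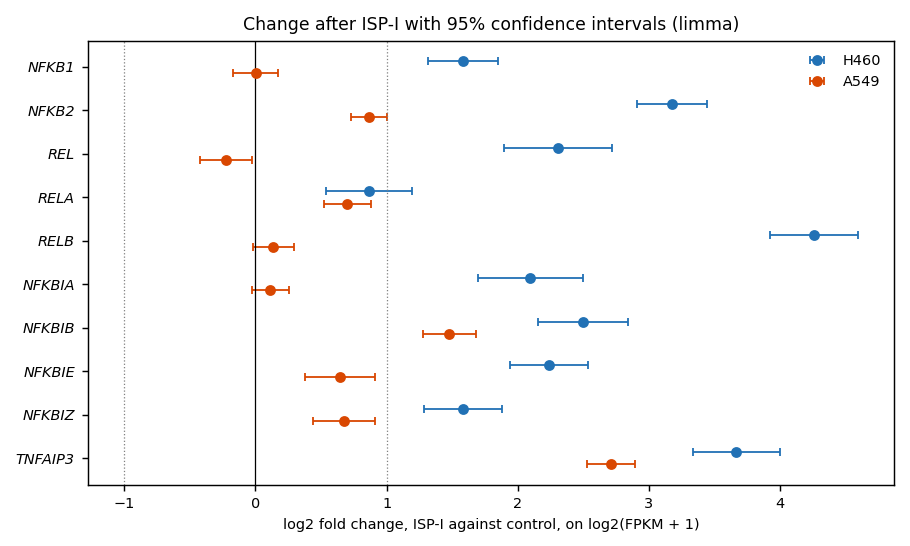
Log2 fold change after ISP-I on log2(FPKM + 1) (horizontal axis) of the 10 genes in H460 and A549, with points for the estimates and bars for 95% confidence intervals from limma, and dotted lines at a 2-fold change. The intervals of H460 and A549 overlap for RELA and are apart for the other 9 genes, most widely for RELB (4.26 against 0.13).

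Several of these genes differed between the lines before treatment, as did many of all genes. Of the 10 members, 1 was called higher and 2 lower in untreated H460 than in untreated A549, where 5.64% of 13532 genes were called higher and 8.78% lower. TNFAIP3 was 10.6-fold higher in H460 (log2 difference 2.87, SE 0.098, adjusted p 5.63e-08). RELB was lower in H460, at 1.78 ± 0.327 against 12.9 ± 0.471 FPKM (SD, n = 3, log2 difference -2.33, SE 0.11, adjusted p 3.79e-07). NFKBIE was also lower (log2 difference -1.12, SE 0.13, adjusted p 0.000115), but under 2-fold without A549 control library 3 (-0.98). NFKB2 (-0.87), NFKBIB (-0.95) and NFKBIZ (-0.89) were lower and NFKB1 (0.24) higher with an adjusted p under 0.05 and less than 1 on this log2 scale. For NFKBIZ that came from the value added before the log, since its mean FPKM was 2.80-fold lower (0.913 against 2.55) and its log2 difference was -1.39 with 0.1 added and -1.43 to -1.48 in voom. At any size 2 members were thus higher and 5 lower, where 28.6% and 31.6% of all genes were. With 10 members, these counts are too near the shares of all genes to be read as a trait of the members. Without A549 control library 2 the NFKBIB difference passed 2-fold (-1.03). The NFKB1 difference missed the adjusted p without any of the libraries but A549 control library 2 (0.19 to 0.25, adjusted p 0.0717 to 0.108). For REL, RELA and NFKBIA no difference between the untreated lines was detected, with intervals of -0.39 to 0.058, -0.35 to 0.19 and -0.49 to 0.031. This comparison and the changes after ISP-I use the same control libraries, so they are not independent of each other.

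The order of the levels per length changed most in H460. In H460 controls NFKBIB led, followed by TNFAIP3, NFKBIA, RELA and NFKB2, and among the last 4 of these each range overlapped that of its neighbour. After ISP-I the order in H460 was TNFAIP3, NFKB2, NFKBIB, NFKBIA and RELB, and among these the ranges of NFKB2 and NFKBIB alone overlapped. RELB thereby went from the eighth place to the fifth, above RELA. In A549 NFKBIB and NFKB2 led in each condition, and REL was last. The largest move in A549 was that of TNFAIP3, from the ninth place to the fifth. Neighbours whose ranges also overlapped were RELA and NFKB1 and then REL and NFKBIZ in treated H460, NFKBIA and RELA and then NFKB1 and NFKBIE in A549 controls, and RELB and NFKBIE in treated A549.

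Of the summed FPKM of the 5 subunits, RELA and NFKB1 held smaller shares and NFKB2 and RELB larger shares in H460 after ISP-I than in controls. The sum was 49.6 ± 3.45 FPKM in H460 controls and 292 ± 16.6 after ISP-I, and 75.1 ± 2.19 and 117 ± 1.01 in A549 (SD, n = 3). RELA made up 38.95% ± 3.31 of it in H460 controls and 12.3% ± 0.721 after ISP-I, and NFKB1 went from 21.8% ± 1.52 to 11.8% ± 1.59. NFKB2 went from 34.5% ± 2.34 to 55.6% ± 0.280, and RELB from 3.58% ± 0.458 to 17.9% ± 1.96. In A549 NFKB2 went from 42.6% ± 0.980 to 50.6% ± 1.14, RELB from 17.2% ± 0.132 to 12.3% ± 0.595 and RELA from 27.2% ± 1.76 to 28.96% ± 0.899. The share of REL stayed at or under 3.36% in every library. These are shares of mRNA and no measure of the proteins or of dimers in the nucleus, and no test was applied to them.

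The classical inhibitors NFKBIA, NFKBIB and NFKBIE were then set against the subunits. Their summed FPKM divided by that of the subunits was 0.976, 1.01 and 0.976 in the H460 control libraries and 0.808, 0.815 and 1.04 after ISP-I. These groups overlapped, since the third treated library was above the controls and the other two below. In A549 the ratio was 1.12, 1.03 and 1.15 in controls and 1.53, 1.53 and 1.62 after ISP-I, with no overlap. The means were 0.987 ± 0.0183 and 0.888 ± 0.133 in H460 and 1.10 ± 0.0661 and 1.56 ± 0.0509 in A549 (SD, n = 3). The mean inhibitor sum in A549 went from 82.6 to 182 FPKM, and NFKBIB carried most of this rise (50.8 to 143). NFKBIA went from 23.1 to 25.1 FPKM there and NFKBIE from 8.69 to 14.02, so the higher ratio does not show a like shift of each inhibitor. The subunit sum includes NFKB2, whose product p100 is also an inhibitor.

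**Figure D3:**
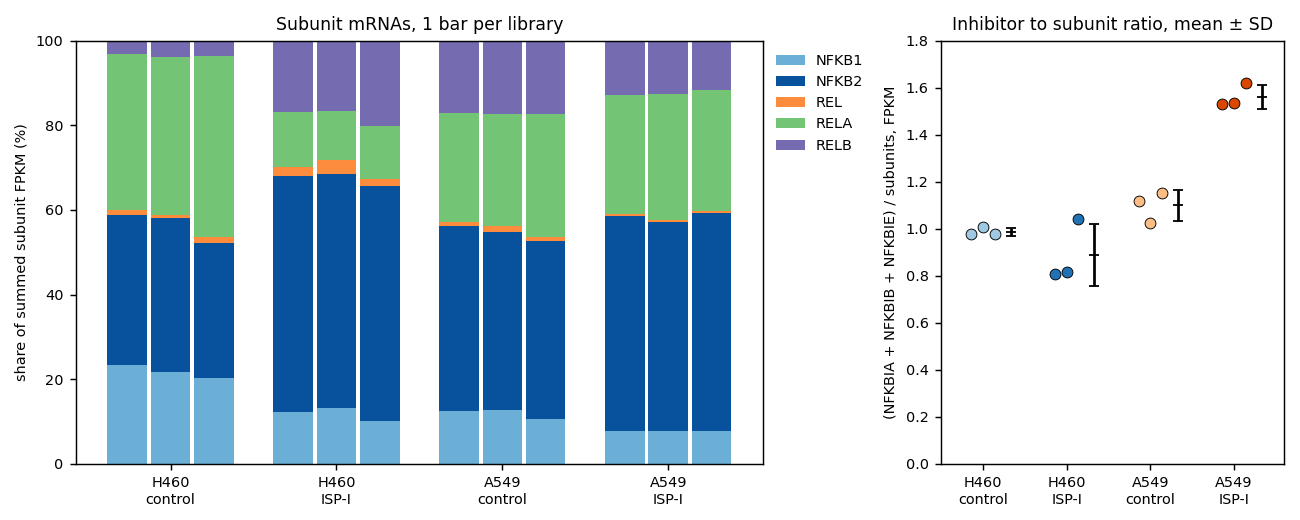
Left, share of each subunit in the summed subunit FPKM (%), with 1 stacked bar per library. Right, summed FPKM of NFKBIA, NFKBIB and NFKBIE divided by that of the subunits, with points for libraries and the mean ± SD of 3 libraries. RELB widens from 3.58% to 17.9% in H460, and the ratio is highest in A549 after ISP-I (1.56).

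The rest of the pathway was read from lists of 81 genes, of which 76 were tested in H460. Receptors and adaptors, which bring the signal to the kinases, had 6 genes called lower and 3 called higher of 19 tested in H460 (median log2 fold change -0.52), where 15.2% of all genes were called lower and 10.5% higher and the median was -0.15. The list median was the value of TLR3, at 0.488 FPKM in H460 controls and 0.0249 after ISP-I. TLR3 was tested there only through its control values, so no rise could have been seen. TNFRSF1A, the main TNF receptor, fell in each line, from 79.6 ± 3.25 to 12.8 ± 1.45 FPKM in H460 (log2 fold change -2.55, SE 0.12, adjusted p 8.96e-07, limma) and from 111 ± 10.2 to 44.01 ± 1.15 in A549 (-1.31, SE 0.079, adjusted p 5.94e-06). MYD88, the adaptor of Toll-like and interleukin-1 receptors, fell from 5.97 ± 0.363 to 1.11 ± 0.337 in H460 (-1.73, SE 0.14, adjusted p 1.07e-05) with -0.28 in A549, where the adjusted p of 0.0293 was not held with all 12 libraries in 1 fit (0.0676) or without any one ISP-I library (0.0582 to 0.0962). The opposite held for TNFRSF12A, the receptor for TWEAK, which rose in H460 from 94.6 ± 10.9 to 694 ± 241 (2.81, SE 0.24, adjusted p 1.44e-05) and in A549 from 208 ± 40.4 to 485 ± 22.8 (1.24, SE 0.13, adjusted p 0.000105). TRAF2, which couples TNF receptors to the kinases, rose in A549 (log2 fold change 0.80, adjusted p 4.84e-05) and had a log2 fold change of 0.40 in H460 (adjusted p 0.0553), which passed with the scaling by gene ratios (0.67, adjusted p 0.00650). TNFRSF1B, the second TNF receptor, moved in opposite directions at low levels. In H460 its mean fell from 1.31 to 0.386 FPKM, while A549 had 0.231 in controls and 1.25 after ISP-I. Its log2 fold changes were -0.74 and 0.87 and depended on the value added before the log, being -1.56 and 2.03 with 0.1 added. In A549 the list had 2 genes called higher and 1 lower of 19 tested, with a median of 0.095, where 4.2% of all genes were called higher and 3.51% lower and the median was 0.020.

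Among 13 kinase genes and their partners, 3 were called higher and 2 lower in H460 (median 0.32), and 1 was called lower in A549 (median 0.15), against the same shares and medians of all genes. The 2 called lower in H460 are thus near the share of all genes (15.2%). MAP3K14 encodes NIK, the kinase that starts p100 processing, and it rose in H460 from 6.58 ± 0.605 to 24.8 ± 3.10 FPKM (1.76, SE 0.13, adjusted p 6.21e-06). In A549 it fell slightly, from 22.04 ± 0.945 to 18.3 ± 1.01 (-0.26, SE 0.070, adjusted p 0.0139, but 0.0632 and 0.0609 without ISP-I library 2 or 3), and the difference between the lines was 2.02 (adjusted p 3.45e-07). IKBKG encodes NEMO, the scaffold of the IkB kinase complex, and its values may include reads of a near-identical pseudogene. It rose in H460 (2.04, SE 0.13, adjusted p 3.06e-06) and by less in A549 (0.47, SE 0.071, adjusted p 0.000693). IKBKE, a kinase related to the IkB kinases, fell in H460 from 4.69 ± 0.276 to 0.527 ± 0.0735 (-1.90, SE 0.099, adjusted p 1.28e-06) and under 2-fold in A549 (-0.80). MAP3K8, which encodes TPL2, a kinase held by p105, fell in A549 from 7.23 ± 0.434 to 2.92 ± 0.203 (-1.07, SE 0.081, adjusted p 1.79e-05) with -0.37 in H460 (adjusted p 0.0169). The H460 change did not pass with the scaling by gene ratios (-0.16, adjusted p 0.244), without control library 2 (adjusted p 0.0588) or without ISP-I library 1 (adjusted p 0.0708).

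Of 8 ubiquitin ligase genes of the pathway that were tested, 1 was called lower in H460, near the 15.2% of all genes. It was RBCK1, which encodes the HOIL-1 subunit of the linear ubiquitin ligase. It fell in H460 from 29.98 ± 1.49 to 7.16 ± 1.26 FPKM (-1.93, SE 0.13, adjusted p 4.79e-06) and rose under 2-fold in A549 (0.45, SE 0.076, adjusted p 0.00126). SHARPIN, another subunit of that ligase, had a log2 fold change of -0.54 in H460 (adjusted p 0.00852) that did not pass with the scaling by gene ratios (-0.29, adjusted p 0.112), and its log2 fold change in A549 was -0.022 (adjusted p 0.863). RBX1, part of the ligase that marks IkB for destruction, rose under 2-fold in A549 (0.53), and its value in H460, -0.086 (adjusted p 0.757), took the other sign under the scaling by gene ratios (0.18). BTRC, which encodes the IkB receptor of that ligase, had log2 fold changes of 0.31 in H460 and 0.20 in A549, with adjusted p values of 0.0509 and 0.0697. With the scaling by gene ratios the H460 value was 0.57 and passed (adjusted p 0.00424), and it lay just under the threshold at a mean FPKM of 1 or more (adjusted p 0.0475). Without A549 control library 3 the A549 value passed (0.24, adjusted p 0.0158).

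Of 13 other IkB-like proteins and negative regulators, 4 were called higher in H460 (median 0.10), where 10.5% of all genes were, and 1 was called lower in A549 (median 0.18), where 3.51% were. The all-gene medians were -0.15 and 0.020. CYLD, a deubiquitinase that opposes the pathway, rose in H460 from 1.34 ± 0.251 to 7.52 ± 0.774 FPKM (1.87, SE 0.13, adjusted p 4.53e-06) and in A549 from 1.76 ± 0.310 to 4.42 ± 0.303 (0.98, SE 0.10, adjusted p 0.000101), 2.51-fold in mean FPKM. The A549 change passed 2-fold with 0.1 added before the log (1.29), in voom (1.30 and 1.34) and without control library 1, control library 2 or ISP-I library 2 (1.02 to 1.04). ZC3H12A encodes Regnase-1, an RNase that degrades cytokine mRNAs. It rose in H460 from 13.2 ± 1.75 to 55.8 ± 5.65 (1.998, SE 0.14, adjusted p 4.31e-06), with a log2 fold change of 0.047 in A549 (adjusted p 0.690). OTUD7B, a deubiquitinase that restrains the alternative branch, rose in H460 (1.72) and under 2-fold in A549 (0.72). BCL3, an atypical IkB that acts with p50 and p52 in the nucleus, fell in A549 from 19.3 ± 0.816 to 6.40 ± 0.938 (-1.46, SE 0.10, adjusted p 1.16e-05) and under 2-fold in H460 (-0.63, or -0.37 with the scaling by gene ratios). TNIP2, a partner of A20, rose under 2-fold in A549 (0.80), and its log2 fold change in H460 was 0.26 (adjusted p 0.101), which passed with the scaling by gene ratios (0.53, adjusted p 0.00689).

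NF-kB target genes rose widely in H460. Of 23 tested there, 20 passed the adjusted p in the higher direction, 11 of them over 2-fold (median log2 fold change 0.996), where 27.6% of all genes passed higher and 10.5% were also over 2-fold. In A549, 10 of 24 passed higher and 5 lower, 3 and 1 of them over 2-fold (median 0.18). Of all genes there 30.5% passed higher and 27% lower, and 4.2% and 3.51% were also over 2-fold. Some of the genes that passed higher averaged under 0.1 FPKM in controls and were tested only through their treated values. These were TNF and LTB in H460 (0 and 0.045 FPKM in controls) and CCL20, IL6 and ICAM1 in A549 (0.088, 0.034 and 0.066). For them no fall could have been seen. The list was also chosen with earlier results of these data known, so these counts are a description. CXCL8, which encodes the neutrophil chemokine interleukin-8, rose in H460 from 66.96 ± 6.86 to 1755 ± 144 FPKM (SD, n = 3, 4.69, SE 0.16, adjusted p 2.16e-07). In A549 it was at 5.27 ± 0.592 in controls and 5.26 ± 0.981 after ISP-I (adjusted p 0.953). IER3, an early response gene, rose in H460 from 32.4 ± 6.68 to 771 ± 43.6 (4.55, SE 0.17, adjusted p 3.60e-07) and under 2-fold in A549 (0.73). TRAF1, an adaptor of TNF receptors, rose in each line, from 0.661 ± 0.106 to 34.8 ± 4.09 in H460 (4.43, SE 0.12, adjusted p 1.08e-07) and from 3.04 ± 0.249 to 28.1 ± 0.701 in A549 (2.85, SE 0.073, adjusted p 1.63e-07). SAT1, an enzyme of polyamine breakdown, also rose in each line (2.66 in H460 and 1.10 in A549). CXCL1, a chemokine whose reads may be shared with its close paralogs, fell in A549 from 20.98 ± 1.96 to 6.74 ± 0.888 (-1.51, SE 0.10, adjusted p 1.18e-05). In H460 it rose from 151 ± 10.8 to 313 ± 107, just under the called range (0.996, SE 0.23, adjusted p 0.00487), and it passed 2-fold without control library 3, ISP-I library 1 or ISP-I library 2 (1.03 to 1.22). In the test of the difference between the lines, 12 of 25 target genes were called higher in H460 and 1 lower, where 5.93% and 10.1% of all genes were.

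**Figure D4:**
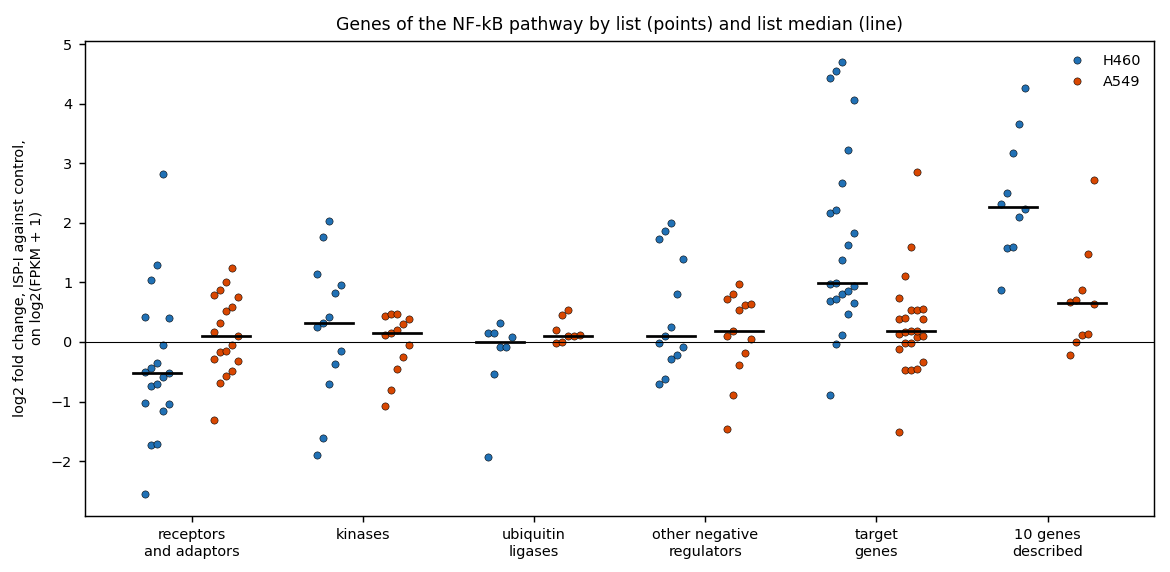
Log2 fold change after ISP-I on log2(FPKM + 1) (vertical axis) of each tested gene of the 5 pathway lists and of the 10 subunit and inhibitor genes, in H460 and A549, with points for genes and lines for list medians. In H460 the medians run from -0.52 for receptors and adaptors to 0.996 for target genes and 2.27 for the 10 genes, and in A549 they lie between 0.095 and 0.66.

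The genes whose log2(FPKM + 1) followed a member most closely over the 12 libraries were taken from 10583 other genes that averaged at least 1 FPKM, by Pearson correlation. The 12 libraries fall into 4 groups, so these values describe the pattern over groups and carry no p. The closest to NFKB1 was COLEC12 (0.997), a scavenger receptor, and to NFKB2 JUN (0.994), a subunit of AP-1. For REL it was PTGS2 (0.993), the inducible cyclooxygenase, which is also in the target list. For RELA it was ZNHIT2 (0.982) and for RELB KCNMA1 (0.986), a potassium channel subunit. For NFKBIB it was LAMB3 (0.993), a chain of laminin, for NFKBIE KCTD11 (0.985), for NFKBIZ ZNF766 (0.994) and for TNFAIP3 SDE2 (0.999). JUN, the match of NFKB2, was at 11.3 FPKM in H460 controls and 387 after ISP-I, and at 36.6 and 108 in A549. COLEC12, the match of NFKB1, was at 0.410 FPKM in H460 controls and 5.57 after ISP-I. In A549 it was at 0 and 0.0760, where NFKB1 was at 8.98 in each group. COLEC12 reached the average of 1 FPKM only through treated H460.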

How the data were processed

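RNA-seq was done on H460 and A549 cells, control or ISP-I (10 μM, 48 h), with 3 libraries per group. The authors filtered paired-end reads (FastQC), mapped them to hg38 (HISAT2), counted them on genes (HTSeq 0.9.1) and deposited FPKM. The gene length column is another unit, bases, as the authors listed it. The annotation version and strand setting are not given in the sources used here. 4 lines that were pieces of another line were left out. FPKM times length, divided by a scale fitted for each library, was a whole number of reads (tolerance 0.05) for 100% of values, which gave the depth. The columns name line and treatment and carry a number from 1 to 6 within a line that is not the replicate number of the labels, so libraries are named by their place within the group.

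Values were tested as log2(FPKM + 1) with limma 3.58.1 (mean-variance trend, R 4.3.3) over genes averaging 0.1 FPKM or more in the fit, with Benjamini-Hochberg adjustment over all genes tested. Calls needed more than a 2-fold change with an adjusted p below 0.05. The comparisons were ISP-I against control in each line, their difference (interaction, 12 libraries) and untreated H460 against untreated A549. The scripts were tested on simulated data. Positions were compared with GENCODE 44, and promoters came from RefSeq. All 10 members, the genes of each list with the 3 smallest p-values per line and the closest gene to each member were named, except that a marker and a correlated gene are not reported here. Members and lists were chosen with earlier results of these data known. The alternatives were no filter or a mean FPKM of 1 or more, 0.1 added before the log, median-of-ratios scaling, limma voom on recovered reads (at least 10 in 3 libraries), all 12 libraries in 1 fit, reads not divided by length, and leaving out each library.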

Additional observations from a re-analysis of the deposited data

Results flagged for a closer look

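The results below were singled out because the change after ISP-I differed between H460 and A549 by more than 2-fold with an adjusted p under 0.05 in the interaction of line and treatment (limma, 12 libraries). Values are the log2 change in H460 minus that in A549. Only the members and the list genes named above are covered. Of 79 list genes tested, 17 met the rule in the higher direction and 10 in the lower. Among those left out are CXCL2 (4.08), TAB1 (-1.73) and the target gene BCL2L1 (-1.44). Among the subunits the differences were 1.58 for NFKB1, 2.31 for NFKB2, 2.53 for REL and 4.12 for RELB. Among the inhibitors they were 1.98 for NFKBIA, 1.02 for NFKBIB and 1.59 for NFKBIE. Every one of these 7 was larger in H460.

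Of the receptors and adaptors, TNFRSF12A differed by 1.58, TNFRSF1A by -1.24, TNFRSF1B by -1.60 and MYD88 by -1.45. Of the kinases, MAP3K14 differed by 2.02, IKBKG by 1.57 and IKBKE by -1.09. The ligase subunit RBCK1 differed by -2.39, having fallen in H460 and risen in A549. The regulators ZC3H12A and OTUD7B differed by 1.95 and 1.002. Of the target genes, CXCL8 differed by 4.70, IER3 by 3.82, CXCL1 by 2.51, TRAF1 by 1.58 and SAT1 by 1.56. The value of OTUD7B was under 2-fold without A549 control library 2, A549 ISP-I library 2 or 3, H460 control library 1, or H460 ISP-I library 1 or 2 (0.956 to 0.9996). With the libraries scaled by their gene ratios TNFRSF1A and IKBKE were under 2-fold (-0.94 and -0.96). For genes at low levels the size depended on the value added before the log, and with 0.1 in place of 1 REL differed by 3.88, TNFRSF1B by -3.59 and IKBKE by -1.96.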

How the results depend on the processing

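No paired analysis was possible because the columns of the table carry the line and the treatment but not the replicate numbers of the labels. In H460 the number of members called higher was 9 in every fit that left out a library and 10 with median-of-ratios scaling, and in A549 it was 2 under every alternative run. For the difference between the lines it was 6 to 8 when a library was left out and 9 with median-of-ratios scaling. In untreated cells the members called lower in H460 numbered 1 to 3 when a library was left out, with 1 without A549 control library 3.

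Counts over all genes moved more. A pseudocount of 0.1 gave 2322 higher and 3464 lower in H460, 1336 and 1062 in A549, 1451 and 2788 for the difference, and 1363 and 2251 in untreated cells. Limma voom with library totals gave 2375 and 3651, 1393 and 1197, 1427 and 2954, and 1428 and 2328 in the same order. With median-of-ratios factors voom gave 3056 higher and 2769 lower in H460, 1316 and 1277 in A549, 2114 and 1909 for the difference, and 1536 and 2244 in untreated cells. Median-of-ratios scaling of FPKM gave 1300 higher and 827 lower for the difference, against 827 and 1407 without it.

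Directions that changed were all of values that did not pass the test before an alternative was applied. NFKB1 in A549 was -0.028 with median-of-ratios scaling, -0.031 in voom with these factors and -0.052 to 0.044 when a library was left out. RBX1 in H460 was 0.18 in each of those fits (0.176 and 0.180) and -0.37 to 0.062 when a library was left out. The value of -0.37, without H460 ISP-I library 3, passed the adjusted p (0.0282, limma). The ranges when a library was left out were -0.13 to 0.099 for CXCL8, -0.094 to 0.087 for SHARPIN and -0.012 to 0.12 for ZC3H12A in A549, and -0.19 to 0.0089 for RELA between the untreated lines.

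Without division by gene length the subunit shares of NFKB1, NFKB2, REL and RELB were 25.7%, 30.1%, 2.78% and 2.001% in H460 controls. In H460 with ISP-I the shares of NFKB1, NFKB2, REL, RELA and RELB were 15.3%, 53.5%, 6.40%, 13.8% and 11.03%. In A549 they were 15.5%, 40.9%, 2.71%, 30.3% and 10.6% in controls and 10.0%, 48.9%, 1.16%, 32.4% and 7.58% with ISP-I. The inhibitor to subunit ratios were then 0.432 and 0.429 in H460 and 0.530 and 0.751 in A549. The cause of the other changes was not tested. The smallest change that 82 to 187 reads of REL per library in A549 could show was not tested.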
